A study of Mus musculus with 12 samples.

Results

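Chemokines are small secreted proteins that guide migrating cells, and chemokine receptors are the G protein-coupled receptors that read them. The genes described here are the rows of the deposited counts whose symbol starts with Ccl or Cxcl and a number, is Ccr or Cxcr with a number, or is Cx3cl1, Xcl1, Xcr1 or Ackr3. This rule, which uses names and no measured value, found 57 genes of 24421. They are 24 CC ligands, 13 CXC ligands, the ligands Cx3cl1 and Xcl1, and 18 receptors. RNA was sequenced from 12 mouse brain samples in 4 groups of 3 libraries. Tumours of the first group carried the fusion YAP1-TFE3, those of the second YAP1-FAM118B and those of the third YAP1-MAMLD1-dR3R1, and the last group was naive cortex without injection. Each fusion was delivered into the brain with RCAS, an avian retroviral vector that enters cells carrying its receptor, and the labels call the material whole tumour tissue. YAP1 is the co-activator held back by the Hippo pathway, and TFE3, FAM118B and MAMLD1 are the partners to which it was joined. The labels used here give neither the mouse line and promoter that supply the RCAS receptor nor the age, strain or sex of the animals, and they do not explain the suffix dR3R1. They do not say that replicates are separate animals, so p-values measure the spread between these libraries, which may in part be technical. Female (Xist) and male (Ddx3y) counts, given below, differ between libraries in every group but YAP1-TFE3, so those groups each hold more than 1 animal. The tissue label of the naive libraries reads tumour while their source label reads normal cortex, and the extraction text speaks of cultured cells while the design text speaks of frozen tumours.

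Ligands and receptors pair promiscuously, but by main partner they fall into groups. Ccl2, Ccl7 and Ccl12 act on Ccr2 and draw monocytes. Ccl3, Ccl4 and Ccl5 act on receptors of myeloid cells and T cells, and interferon-induced Cxcl9, Cxcl10 and Cxcl11 act on Cxcr3 of T and NK cells. Ccl19 and Ccl21 with Ccr7, and Cxcl13 with Cxcr5, arrange T cells, dendritic cells and B cells in lymphoid tissue. In the normal brain the best known members are Cx3cl1, a membrane-bound ligand of neurons whose receptor Cx3cr1 marks microglia, and Cxcl12, which signals through Cxcr4 and is scavenged by the atypical receptor Ackr3.

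Shown are the promoters of Cxcl10 and Cxcl13, which held motif matches and whose ligands were abundant in the tumours and nearly uncounted in naive cortex. They are the 250 bases before the RefSeq start in build GRCm38.p6, and capitals mark matches to 3 searched motifs. These were the TEAD core GGAATG, the interferon response element core, which is GAAA, 2 free bases and GAAA, and the NF-kB site by name, each on both strands. In Cxcl10 the matches were 1 interferon response core and 3 NF-kB matches, of which a pair overlapped, and in Cxcl13 the match was 1 TEAD core. The promoters of Ccl12, Cxcl9, Cx3cl1 and Ackr3 were searched alike, held no match and are not shown.
Cxcl10, chr5:92348890-92349139, minus strand: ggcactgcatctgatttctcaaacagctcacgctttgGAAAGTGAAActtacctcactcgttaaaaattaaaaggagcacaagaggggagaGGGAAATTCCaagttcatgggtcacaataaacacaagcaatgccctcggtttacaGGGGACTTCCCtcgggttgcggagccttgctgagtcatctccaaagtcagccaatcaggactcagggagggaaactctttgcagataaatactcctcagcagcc
Cxcl13, chr5:95956689-95956938, plus strand: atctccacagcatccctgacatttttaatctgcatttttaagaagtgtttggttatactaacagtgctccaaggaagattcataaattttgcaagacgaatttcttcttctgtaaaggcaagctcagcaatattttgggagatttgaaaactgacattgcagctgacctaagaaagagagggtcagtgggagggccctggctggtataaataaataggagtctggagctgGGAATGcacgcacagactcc
Of the 57 members 41 had a promoter in this table. The TEAD core was in 6 of those 41 and in 12.6% of all 27025 promoters. The interferon core was in 3 and in 3.04% of all promoters. The NF-kB motif was in 9 of the members' promoters and in 7.01% of all of them. These are matches of letters and not shown sites.

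Total counts were 19850220 to 24760814 per library, so that 3 counts were worth 0.117 to 0.145 CPM, the count scaled to a fixed library size. Such limits cover counting error only. Xist and the Y-linked Ddx3y stood together at 162 and 29.9 CPM in YAP1-FAM118B replicate 2 and at 25.6 and 49.3 CPM in naive replicate 2. Calls that end without both of these libraries are given at the end of the comparison between fusions. In every other library the lower of the pair was at most 0.434 CPM. Every YAP1-TFE3 library was high in Ddx3y (68.9 to 87.8 CPM), as were naive replicate 1, YAP1-FAM118B replicate 3 and YAP1-MAMLD1-dR3R1 replicates 2 and 3. Naive replicate 3, YAP1-FAM118B replicate 1 and YAP1-MAMLD1-dR3R1 replicate 1 were high in Xist (305, 320 and 493 CPM). Sex was thus uneven between the groups, and its part in the results was not tested. Neuron markers summed to 94.1 to 1164 CPM in YAP1-TFE3 tumours, 4928 to 7343 CPM in YAP1-FAM118B tumours, 269.8 to 1664 CPM in YAP1-MAMLD1-dR3R1 tumours and 8099 to 12704 CPM in naive cortex, where all 12 were counted. Of the 12, 11 passed the test as lower in YAP1-TFE3 tumours, 1 in YAP1-FAM118B tumours and 9 in YAP1-MAMLD1-dR3R1 tumours. Of 16 microglia markers, 14, 11 and 16 were higher than naive in the tumours in that order, and none was lower. Their sum was 1817 to 5406 CPM in YAP1-TFE3, 2852 to 3105 CPM in YAP1-FAM118B, 8810.5 to 14015 CPM in YAP1-MAMLD1-dR3R1 and 378 to 466 CPM in naive libraries. Of 16 monocyte and macrophage markers, 12, 13 and 14 were higher in that order, and 1 was lower in YAP1-TFE3 tumours. They summed to 1996 to 3238, 1487 to 4803 and 3054 to 7139.6 CPM in the 3 tumour groups, against 87.7 to 103 CPM in naive cortex, where Ly6c2 was at 0. In RNA of whole tissue, fewer cells of a type and less RNA per cell cannot be told apart, and the part of these cells in the results below was not tested.

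Most chemokine and receptor genes that could be tested were higher in tumours than in naive cortex. Of the 57 members 46 passed the filter on low counts. In YAP1-TFE3 tumours 33 were higher than naive and 3 lower by edgeR's quasi-likelihood test at an adjusted p of 0.05, where 70.6% of all 16364 genes tested were called in either direction, 40.6% as higher and 30.0% as lower. In YAP1-FAM118B tumours 24 were higher and 0 lower, where 29.7% of all genes were called, 21.3% as higher and 8.45% as lower. In YAP1-MAMLD1-dR3R1 tumours 36 were higher and 3 lower, where 63.2% of all genes were called, 34.4% as higher and 28.8% as lower. Every tumour library lay above every naive library in 31 members in YAP1-TFE3, where 42.5% of all genes did so, in 30 in YAP1-FAM118B (29.7%) and in 36 in YAP1-MAMLD1-dR3R1 (38.0%), and below in 3 (33.2%), 0 (27.1%) and 3 (34.9%) in the same order. A member nearly silent in cortex passed the filter through the tumours and so had to differ, which makes these counts a description of the 46 only. With no filter, 52 members had a value and 30, 23 and 36 were higher in the same order. Of all 20325 genes with a value 5888, 3469 and 5548 were higher. The median log2 fold change of the 46, with genes of at most 3 naive counts set to their bound or ratio, was 5.05, 3.80 and 6.15 in the same order, against 0.23, -0.05 and 0.06 over all genes tested. Without YAP1-TFE3 replicate 3 the calls in that fusion went to 19 higher and 3 lower. Of the 16659 genes tested in that setting 5609 were higher and 5345 lower.

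By the same calls 22 members were higher in all 3 fusions and none was lower in all 3. Among the 22 were Ccl2 to Ccl9, Ccl11, Ccl12, Cxcl1, Cxcl9, Cxcl10, Cxcl11, Cxcl13, Cxcl16, Ccr1, Ccr2, Cxcr2, Cxcr3 and Cxcr4. A further 9 were higher in YAP1-TFE3 and YAP1-MAMLD1-dR3R1 tumours and not called in YAP1-FAM118B tumours, namely Ccl1, Ccl17, Ccl22, Cxcl2, Ccr7, Ccr8, Cxcr6, Xcl1 and Xcr1. The 3 comparisons share their naive libraries. The share of all genes with such shared calls was not counted, so these counts describe the members only. Called in none of them were Ccl28, Ccr10, Cxcl5 and Cxcl12. The 11 members not tested were Ccl20 with 93 counts over all libraries, Ccr4 with 94, Cxcl17 with 26, Cxcl3 with 23, Cxcl15 with 2, Ccl26 with 1, and Ccl21a, Ccl21b, Ccl21c, Ccl27b and Cxcr1 with 0. All 26 counts of Cxcl17 were in YAP1-TFE3 tumours. Ccl21a, Ccl21b and Ccl21c are near-identical copies, as are Ccl27a and Ccl27b, and the counts of each set cannot be told apart with certainty.

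**Figure D1:**
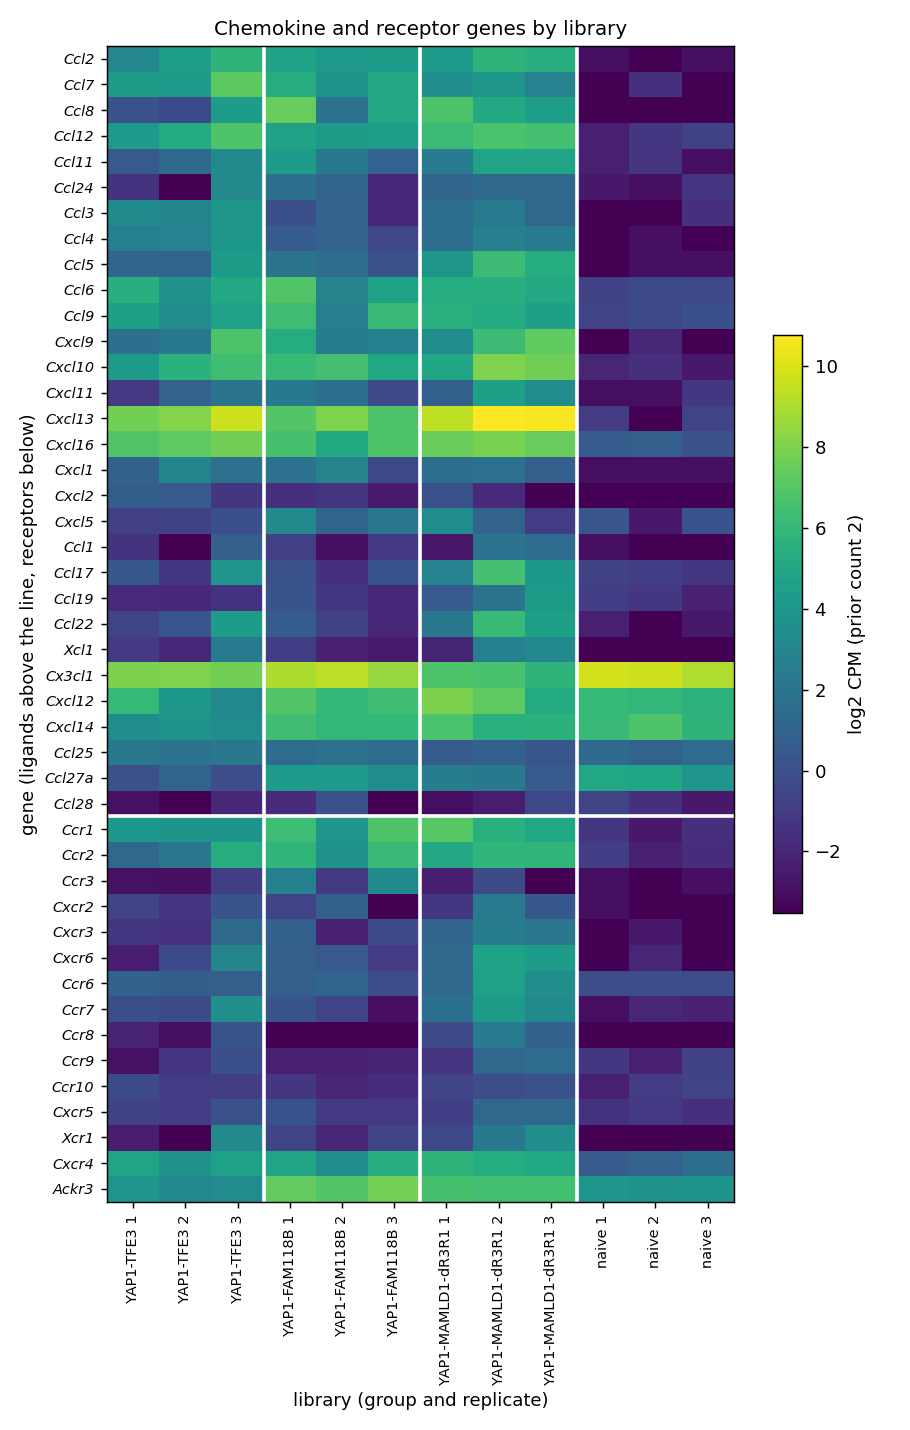
Level of tested members in each library as log2 CPM with a prior count of 2, with ligands above the white line and receptors below it. YAP1-TFE3 libraries stand at the left and naive libraries at the right, where most rows are dark, while Cx3cl1, Cxcl14, Cxcl12 and Ccl27a are bright there.

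The most abundant ligand per length in every tumour group was Cxcl13, a B-cell attractant that myeloid cells can also make. Its CPM was 209, 274 and 839.9 in YAP1-TFE3 tumours, 122, 261 and 115 in YAP1-FAM118B tumours and 669, 1754 and 1565 in YAP1-MAMLD1-dR3R1 tumours, against 0.411, 0 and 0.572 in naive cortex. Each tumour library exceeded each naive library by a wide margin, and every YAP1-MAMLD1-dR3R1 library exceeded every YAP1-FAM118B library. The log2 fold change over naive was 10.38 ± 1.10 (SE, adjusted p = 2.57e-05) in YAP1-TFE3, 8.97 ± 1.05 (0.000205) in YAP1-FAM118B tumours and 11.97 ± 1.16 (2.58e-05) in YAP1-MAMLD1-dR3R1. Per kilobase of GENCODE exon, the mean level was 383 CPM in YAP1-TFE3, 144 CPM in YAP1-FAM118B and 1156 CPM in YAP1-MAMLD1-dR3R1 tumours. In YAP1-FAM118B tumours Ccl8 at 139.6 CPM per kilobase and Cx3cl1 at 130.4 lay close behind, within the spread of their libraries. Its receptor Cxcr5 stayed low, at means of 0.634, 0.578 and 1.71 CPM in the same order, against 0.309 CPM in naive cortex, and was called higher in YAP1-MAMLD1-dR3R1 tumours alone (adjusted p = 0.0105). B-cell markers summed to 2.36 to 77.5 CPM in YAP1-TFE3, 2.55 to 3.32 CPM in YAP1-FAM118B, 14.8 to 119 CPM in YAP1-MAMLD1-dR3R1 and 1.63 to 2.22 CPM in naive libraries. Of the 6 tested, 1, 0 and 3 were called higher in that order, and Pax5 was at 0 in naive cortex. Their part in the Cxcl13 level was not tested.

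The monocyte attractants of the Ccr2 axis were higher than naive in all 3 fusions. Ccl2 stood at 8.54, 21.4 and 55.9 CPM in YAP1-TFE3 tumours, 26.0, 18.1 and 19.2 CPM in YAP1-FAM118B tumours and 17.9, 54.5 and 45.3 CPM in YAP1-MAMLD1-dR3R1 tumours, against 0.0411, 0 and 0.0440 CPM in naive cortex. The naive libraries held 2 counts of it between them. The ratio to naive was 1019 (95% counting interval 282 to 8422) in YAP1-TFE3, 753 (208 to 6226) in YAP1-FAM118B and 1342 (371 to 11090.0) in YAP1-MAMLD1-dR3R1 tumours, with adjusted p of 2.61e-05, 0.000149 and 3.47e-05. Ccl12, a mouse ligand of Ccr2, had 17.8, 38.3 and 113 CPM in YAP1-TFE3, 26.6, 19.2 and 21.5 CPM in YAP1-FAM118B and 75.5, 106 and 89.9 CPM in YAP1-MAMLD1-dR3R1 tumours, against 0.123, 0.335 and 0.528 CPM in naive cortex. Its YAP1-FAM118B and YAP1-MAMLD1-dR3R1 libraries did not overlap, and its log2 fold change over naive was 7.41 ± 0.78 in YAP1-TFE3, 6.08 ± 0.75 in YAP1-FAM118B tumours and 8.09 ± 0.79 in YAP1-MAMLD1-dR3R1 tumours (adjusted p = 2.34e-05, 0.000266 and 2.75e-05). Ccl7 had 19.6, 18.5 and 145 CPM in YAP1-TFE3, 41.6, 14.9 and 34.3 CPM in YAP1-FAM118B and 12.2, 16.4 and 6.92 CPM in YAP1-MAMLD1-dR3R1 tumours, and in naive cortex it was counted in replicate 2 alone, at 0.251 CPM. Its log2 fold changes over naive were 9.41 ± 1.34, 8.40 ± 1.31 and 7.04 ± 1.28 in that order (adjusted p = 0.000155, 0.00107 and 0.000962). The tumour groups of Ccl2 overlapped one another, and for Ccl7 the YAP1-TFE3 libraries lay above those of YAP1-MAMLD1-dR3R1, a difference that missed the threshold (0.055).

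The receptor Ccr2, carried by inflammatory monocytes, had 2.27, 4.43 and 42.5 CPM in YAP1-TFE3 tumours, 57.5, 13.8 and 68.4 CPM in YAP1-FAM118B tumours and 34.4, 60.4 and 57.2 CPM in YAP1-MAMLD1-dR3R1 tumours, against 0.452, 0.126 and 0.220 CPM in naive cortex. Both lower YAP1-TFE3 libraries lay below every library of the other tumours. Its log2 fold changes over naive were 5.91 ± 1.26, 7.42 ± 1.31 and 7.54 ± 1.32 in that order (adjusted p = 0.00191, 0.00228 and 0.000765), and no pair of fusions differed past the threshold. Ccl8, which in mice acts through Ccr8, had 1.01, 0.709 and 21.1 CPM in YAP1-TFE3, 178, 3.69 and 32.6 CPM in YAP1-FAM118B and 109, 36.3 and 21.4 CPM in YAP1-MAMLD1-dR3R1 tumours, and no count in naive cortex. Against a floor of 3 counts over the naive group it was at least 179.5-fold higher in YAP1-TFE3, at least 1735-fold in YAP1-FAM118B tumours and, in YAP1-MAMLD1-dR3R1 tumours, at least 1383-fold higher (adjusted p = 0.0221, 0.0153 and 0.00746). Its libraries spread more than 10-fold within the first pair of these groups. The YAP1-TFE3 call ended without YAP1-TFE3 replicate 3 (adjusted p = 0.124) and without naive replicate 1 (0.055).

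The ligands Ccl3, Ccl4 and Ccl5 were higher than naive in each fusion and divided the fusions among themselves. Ccl3, released by activated macrophages and microglia, had 9.74, 7.67 and 16.3 CPM in YAP1-TFE3 tumours, 0.903, 1.85 and 0.185 CPM in YAP1-FAM118B tumours and 3.11, 4.83 and 2.31 CPM in YAP1-MAMLD1-dR3R1 tumours, against 0, 0 and 0.264 CPM in naive cortex. Ccl4 had 6.27, 7.09 and 16.6 CPM in YAP1-TFE3, 1.48, 1.97 and 0.646 CPM in YAP1-FAM118B and 3.11, 6.48 and 5.28 CPM in YAP1-MAMLD1-dR3R1 tumours, and 1 count in all of naive cortex. For both genes every YAP1-TFE3 library lay above every YAP1-FAM118B library. The log2 fold change of YAP1-TFE3 over YAP1-FAM118B was 3.51 ± 0.95 for Ccl3 (adjusted p = 0.0113) and 2.86 ± 0.59 for Ccl4 (0.00297). Over naive, Ccl4 had ratios of 708 (127 to 28019) in YAP1-TFE3, 98.5 (17.3 to 3932) in YAP1-FAM118B and 343 (61.1 to 13569) in YAP1-MAMLD1-dR3R1 tumours. Ccl3 had log2 fold changes over naive of 6.94 ± 1.18, 3.44 ± 1.11 and 5.23 ± 1.13 in that order (adjusted p = 0.00049, 0.0419 and 0.0027). Its call in YAP1-FAM118B tumours ended without naive replicate 1 (adjusted p = 0.115), naive replicate 2 (0.114), YAP1-FAM118B replicate 1 (0.0851) or replicate 2 (0.113), and by small margins without YAP1-TFE3 replicate 1 (0.0528), YAP1-MAMLD1-dR3R1 replicate 1 (0.0517) or replicate 2 (0.0524).

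Ccl5, made by T cells and NK cells as well as macrophages, was most abundant in YAP1-MAMLD1-dR3R1 tumours. It had 2.12, 2.04 and 19.5 CPM in YAP1-TFE3, 3.86, 2.90 and 0.923 CPM in YAP1-FAM118B and 16.7, 78.0 and 39.7 CPM in YAP1-MAMLD1-dR3R1 tumours, and 2 counts in all of naive cortex. Every YAP1-FAM118B library lay below every YAP1-MAMLD1-dR3R1 library. The ratio to naive was 279 (76.9 to 2311) in YAP1-TFE3, 93.0 (25.4 to 773) in YAP1-FAM118B and 1512 (418 to 12487) in YAP1-MAMLD1-dR3R1 tumours (adjusted p = 0.000865, 0.0108 and 0.000253). The rodent ligand Ccl6 had 44.2, 13.5 and 36.1 CPM in YAP1-TFE3, 119, 7.14 and 25.9 CPM in YAP1-FAM118B and 40.5, 44.3 and 33.9 CPM in YAP1-MAMLD1-dR3R1 tumours, against 0.534, 0.712 and 0.704 CPM in naive cortex. Ccl9, its neighbour and like it a ligand of Ccr1, averaged 20.0 ± 8.56, 54.2 ± 42.1 and 36.8 ± 11.99 CPM in the same order, against 0.722 ± 0.153 CPM in naive cortex (SD, n = 3 each). Neither differed between any pair of fusions past the threshold. In YAP1-FAM118B tumours replicate 2 was the lowest for Ccl6, Ccl8, Ccl9, Ccr1 and Ccr2, and monocyte and macrophage markers summed to 1487 CPM in it, against 4328 and 4803 CPM in replicates 1 and 3.

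Ccr1, a myeloid receptor of Ccl3, Ccl5, Ccl6 and Ccl9, did not follow Ccl3 between the fusions. It had 17.1, 14.6 and 14.8 CPM in YAP1-TFE3 tumours, 82.3, 16.6 and 112 CPM in YAP1-FAM118B tumours and 135, 47.2 and 32.2 CPM in YAP1-MAMLD1-dR3R1 tumours, against 0.328, 0.0838 and 0.264 CPM in naive cortex. Its YAP1-TFE3 libraries lay near one another, and YAP1-FAM118B replicate 2 fell within their range. Against YAP1-FAM118B the log2 fold change of YAP1-TFE3 was -2.18 ± 0.69 (adjusted p = 0.0226), and against YAP1-MAMLD1-dR3R1 it was -2.20 ± 0.69 (0.0282). The first call ended without YAP1-FAM118B replicate 1 (0.0571) or replicate 3 (0.0802), and the second without YAP1-MAMLD1-dR3R1 replicate 1 (0.119) or any YAP1-TFE3 library (0.0523 to 0.0634).

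The interferon-induced ligands of Cxcr3 were higher than naive in all 3 fusions. Cxcl10 had 19.2, 48.5 and 84.7 CPM in YAP1-TFE3 tumours, 69.9, 96.1 and 31.5 CPM in YAP1-FAM118B tumours and 29.0, 259 and 201 CPM in YAP1-MAMLD1-dR3R1 tumours, against 0.164, 0.251 and 0.0880 CPM in naive cortex. The tumour groups overlapped, and every tumour library lay far above every naive library. Against naive the log2 fold change was 8.19 ± 1.10 in YAP1-TFE3, 8.56 ± 1.11 in YAP1-FAM118B tumours and 9.87 ± 1.15 in YAP1-MAMLD1-dR3R1 tumours (adjusted p = 0.000109, 0.000363 and 7.01e-05). Exons of Cxcl10 share 133 bases (5.91%) with Art3 on the opposite strand. Cxcl9 had 3.28, 4.70 and 110.1 CPM in YAP1-TFE3, 39.9, 5.50 and 6.78 CPM in YAP1-FAM118B and 11.3, 78.9 and 159 CPM in YAP1-MAMLD1-dR3R1 tumours, and in naive cortex 0.168 CPM in replicate 2 alone. A single library held most of its counts in YAP1-TFE3 and in YAP1-FAM118B tumours. Cxcl11 averaged 2.06 ± 1.76, 2.88 ± 1.98 and 11.8 ± 10.97 CPM in the same order, against 0.145 ± 0.179 CPM in naive cortex (SD, n = 3 each), and 41.7% of its exon bases overlap Gm2673 on the opposite strand, so that without a known strand setting their reads cannot be told apart. The receptor Cxcr3 averaged 1.07 ± 1.33, 0.863 ± 0.807 and 3.997 ± 1.71 CPM, against 0.0279 ± 0.0484 CPM in naive cortex. Calls that ended when a library was left out were those of Cxcl9 in YAP1-FAM118B tumours without YAP1-FAM118B replicate 1 (adjusted p = 0.0589) or any naive library (0.0642 to 0.0687), and of Cxcl11 in YAP1-TFE3 and YAP1-FAM118B tumours without naive replicate 1 or 2 (0.0747 to 0.107). That of Cxcl11 ended in YAP1-TFE3 tumours without YAP1-TFE3 replicate 3 (0.0921), and in YAP1-FAM118B tumours without YAP1-FAM118B replicate 1 (0.0927) or 2 (0.0502). Those of Cxcr3 ended without YAP1-TFE3 replicate 3 (0.0694), without YAP1-FAM118B replicate 1 or 3 (0.121 and 0.0688) and, in YAP1-FAM118B tumours, without any naive library (0.0519 to 0.104).

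Cxcl16, a membrane-bound ligand of macrophages and dendritic cells that also takes up oxidised lipid, was abundant in every tumour library. It stood at 119, 153 and 203 CPM in YAP1-TFE3, 98.9, 36.4 and 113 CPM in YAP1-FAM118B and 185, 238 and 172 CPM in YAP1-MAMLD1-dR3R1 tumours, against 1.48, 1.68 and 0.924 CPM in naive cortex. Over naive the log2 fold change was 6.86 ± 0.50 in YAP1-TFE3 (adjusted p = 2.89e-06), 5.92 ± 0.48 in YAP1-FAM118B (3.04e-05) and 7.18 ± 0.51 in tumours of YAP1-MAMLD1-dR3R1 (6.18e-06). Its receptor Cxcr6, carried by activated T cells, averaged 2.92 ± 4.36, 1.12 ± 0.634 and 16.5 ± 12.6 CPM in the same order, against 0.0559 ± 0.0967 CPM in naive cortex (SD, n = 3 each), and was not called in YAP1-FAM118B tumours (0.1002). YAP1-FAM118B over YAP1-MAMLD1-dR3R1 had a log2 fold change of -1.26 ± 0.38 for Cxcl16 (0.0382), called in 5 of 20 settings and lost without any YAP1-FAM118B library but replicate 3, any YAP1-TFE3 or YAP1-MAMLD1-dR3R1 library or naive replicate 1 or 2 (0.0514 to 0.157). Of its exon bases 18.3% overlap the gene Zmynd15.

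The neutrophil attractants were low. Cxcl1 averaged 4.29 ± 2.87 CPM in YAP1-TFE3, 3.79 ± 3.28 CPM in YAP1-FAM118B and 2.68 ± 0.921 CPM in YAP1-MAMLD1-dR3R1 tumours, against 3 counts in all of naive cortex (SD, n = 3 each). The ratio to naive was 103 (35.0 to 504), 91.8 (31.1 to 448) and 63.4 (21.4 to 310) in that order (adjusted p = 0.000298, 0.00131 and 0.000727). Cxcl2 had no naive count and was at least 25.9-fold higher in YAP1-TFE3 (adjusted p = 0.00704) and at least 9.60-fold in tumours of YAP1-MAMLD1-dR3R1 (0.0251), the second call ending without any naive library (0.0508 to 0.057) or YAP1-MAMLD1-dR3R1 replicate 1 (0.092). Cxcl5 averaged 0.632 ± 0.218, 5.08 ± 3.59 and 4.42 ± 5.65 CPM, against 0.734 ± 0.570 CPM in naive cortex, and was not called with the main settings. YAP1-TFE3 over YAP1-FAM118B had a log2 fold change of -3.00 ± 1.16 for Cxcl5 (0.0526), called in 10 of 20 settings. Their receptor Cxcr2 averaged 0.652 to 2.30 CPM in the tumours and had 1 naive count, and its calls in YAP1-TFE3 and YAP1-FAM118B tumours ended without any naive library (0.063 to 0.135), without YAP1-TFE3 replicate 1 or 3 (0.0515 to 0.0786) and, in YAP1-FAM118B tumours, without YAP1-FAM118B replicate 1 or 2 (0.0853 and 0.134), YAP1-TFE3 replicate 2 (0.0539) or YAP1-MAMLD1-dR3R1 replicate 3 (0.0565). Of 9 neutrophil markers 4 were tested and 2 were higher in each fusion, and their sum was 21.4 to 56.1 CPM in YAP1-TFE3, 8.44 to 22.2 CPM in YAP1-FAM118B, 87.0 to 162 CPM in YAP1-MAMLD1-dR3R1 and 3.61 to 5.45 CPM in naive libraries. Elane was at 0 in every group, and Mpo in YAP1-TFE3 and YAP1-MAMLD1-dR3R1 tumours.

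**Figure D2:**
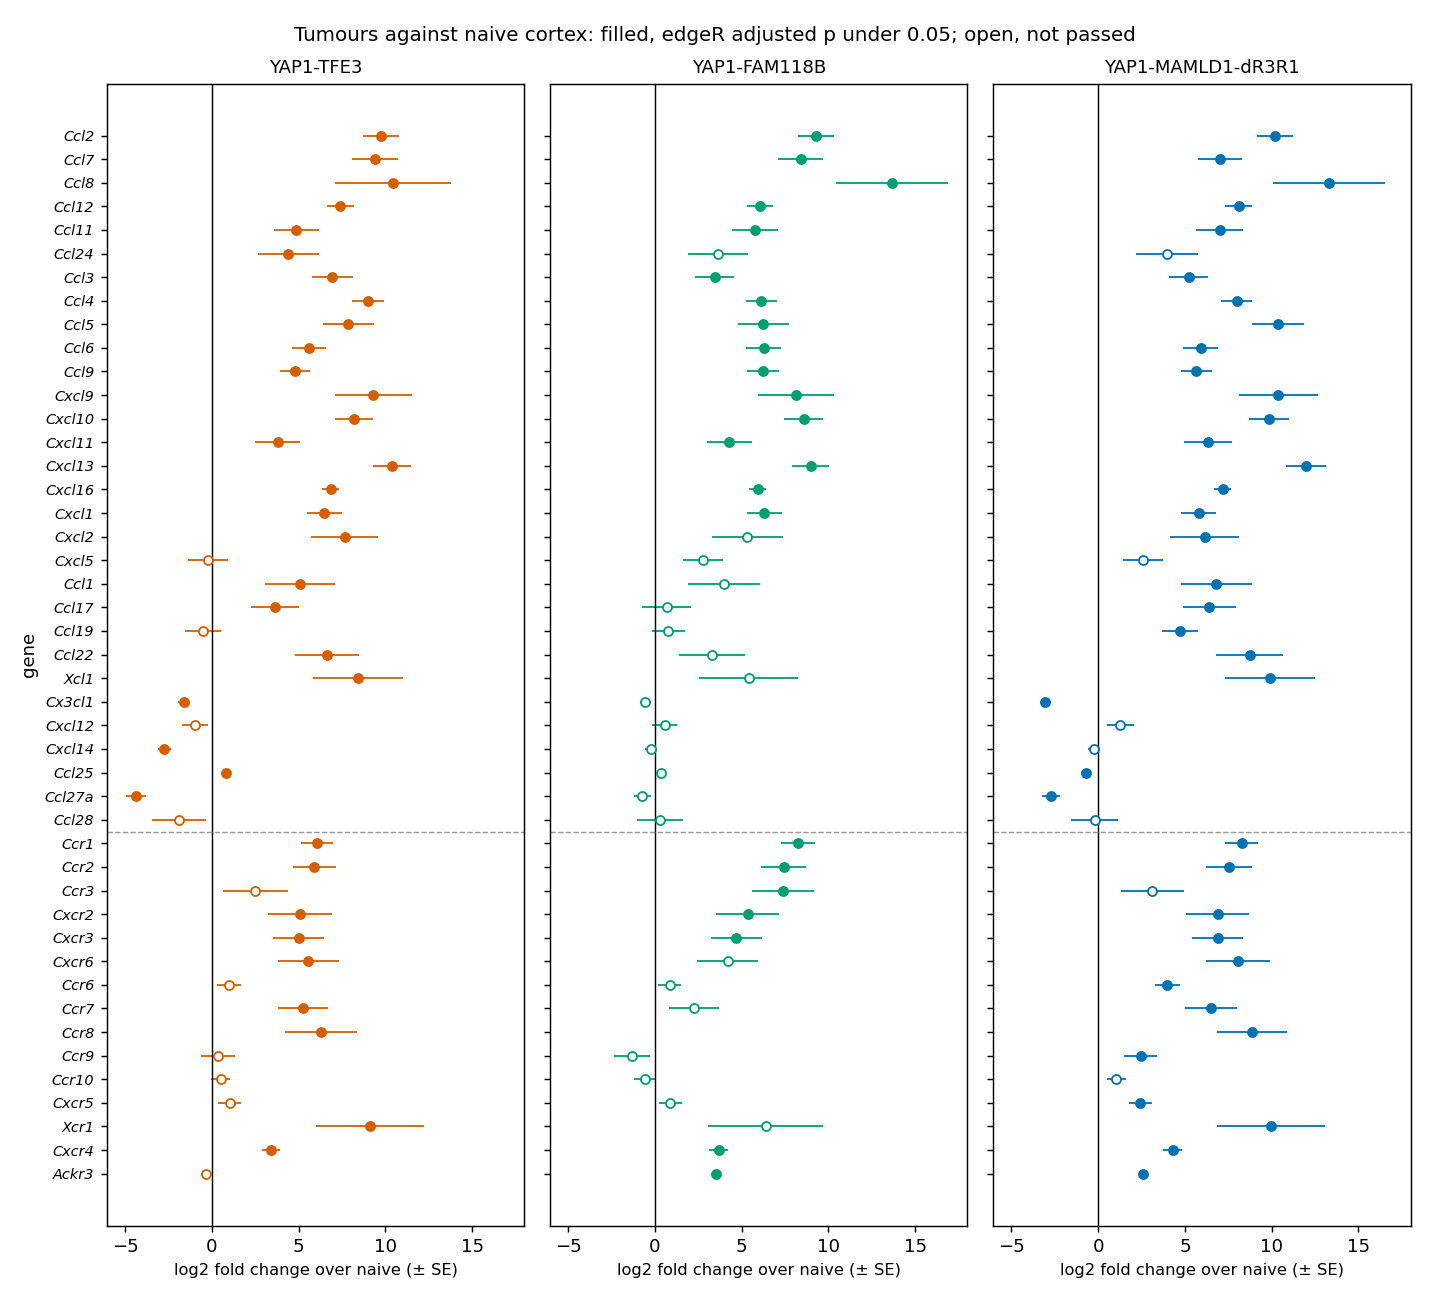
Fitted log2 fold change over naive with its SE for tested members, in a panel for each fusion; filled points passed an adjusted p of 0.05. Most points lie right of 0, and Cx3cl1, Cxcl14 and Ccl27a lie left of it in YAP1-TFE3 tumours; Ccl8, Cxcl2, Xcl1, Xcr1 and Ccr8 had no naive count, so their fitted values depend on the model, and Ccr8, also without a count in YAP1-FAM118B tumours, has no point there.

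Several ligands and receptors of lymphoid tissue and dendritic cells varied widely from library to library. Ccl22, a dendritic cell and macrophage ligand of Ccr4 on regulatory T cells, had 0.579, 1.15 and 21.04 CPM in YAP1-TFE3 tumours, 1.48, 0.504 and 0.185 CPM in YAP1-FAM118B tumours and 4.50, 68.9 and 23.4 CPM in YAP1-MAMLD1-dR3R1 tumours, against 0.123, 0 and 0.0880 CPM in naive cortex. Ccl17, which shares that receptor, had 1.25, 0.355 and 15.4 CPM in YAP1-TFE3, 0.945, 0.252 and 0.969 CPM in YAP1-FAM118B and 6.95, 92.0 and 16.8 CPM in YAP1-MAMLD1-dR3R1 tumours, against 0.534, 0.461 and 0.352 CPM in naive cortex. In both genes YAP1-TFE3 replicate 3 was over 10-fold above the other YAP1-TFE3 libraries, and YAP1-MAMLD1-dR3R1 replicate 1 was the lowest of its group. Ccr7, which takes dendritic cells and T cells to lymph nodes, had 0.868, 0.754 and 11.8 CPM in YAP1-TFE3, 1.07, 0.546 and 0.0461 CPM in YAP1-FAM118B and 3.18, 19.0 and 9.93 CPM in YAP1-MAMLD1-dR3R1 tumours, against 0.0411, 0.168 and 0.132 CPM in naive cortex. Xcr1, the receptor of cross-presenting dendritic cells, had 0.0965, 0 and 9.01 CPM in YAP1-TFE3, 0.575, 0.168 and 0.5998 CPM in YAP1-FAM118B and 0.660, 4.74 and 11.04 CPM in YAP1-MAMLD1-dR3R1 tumours, and no naive count. Its ligand Xcl1, secreted by T and NK cells, had 0.386, 0.177 and 5.06 CPM in YAP1-TFE3, 0.452, 0.126 and 0.0923 CPM in YAP1-FAM118B and 0.155, 6.82 and 8.78 CPM in YAP1-MAMLD1-dR3R1 tumours, and no naive count. In each of these genes YAP1-TFE3 replicate 3 was the highest of its group and YAP1-MAMLD1-dR3R1 replicate 1 the lowest of its own. The log2 fold change of Ccl22 over naive was 6.64 ± 1.85 in YAP1-TFE3 (adjusted p = 0.00875), 3.27 ± 1.89 in YAP1-FAM118B tumours (0.214) and 8.73 ± 1.94 in YAP1-MAMLD1-dR3R1 (0.00312). That of Ccr7 was 5.24 ± 1.45 (0.00826), 2.25 ± 1.42 (0.254) and 6.498 ± 1.499 (0.00383) in the same order. Xcr1 was at least 71.5-fold higher in YAP1-TFE3 (0.0278) and at least 125-fold in YAP1-MAMLD1-dR3R1 tumours (0.0218), and Xcl1 at least 44.2-fold (0.0187) and 118-fold (0.0104). Of the exon bases of Xcl1, 18.7% overlap Gm20743.

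T and NK cell markers summed to 7.72, 8.78 and 74.0 CPM in YAP1-TFE3 tumours, 31.9, 24.5 and 18.3 CPM in YAP1-FAM118B tumours and 27.8, 214 and 159 CPM in YAP1-MAMLD1-dR3R1 tumours, against 6.69, 7.25 and 3.52 CPM in naive cortex. The same libraries stood out as for the ligands above, and the part of T cells in those values was not tested. Of the 15 markers, 9, 2 and 13 were higher than naive in that order, and Cd3d, Cd8b1, Gzmb and Nkg7 were at 0 in naive cortex. Of 10 dendritic cell markers 5, 4 and 5 were higher in the same order and 1 was lower in YAP1-TFE3 tumours, with sums of 152 to 527, 499.7 to 615 and 611 to 1054 CPM, against 197 to 261 CPM in naive libraries. Without YAP1-TFE3 replicate 3 the YAP1-TFE3 calls over naive ended for Ccl1 (adjusted p = 0.28), Ccl17 (0.632), Ccl22 (0.0669), Ccr7 (0.0587), Ccr8 (0.102), Cxcr6 (0.161), Xcl1 (0.0763) and Xcr1 (0.285), and Ccl24, an eotaxin, had a log2 fold change of -0.19 (0.913) where with all libraries it had 4.42 ± 1.78 (0.0465). Ccl1, Ccl17, Ccl24, Ccr8, Cxcr6 and Xcr1 lost that call also without single naive libraries (adjusted p up to 0.142, for Ccl24), and Ccl1, Ccl17 and Ccl24 in several further alternatives. The YAP1-MAMLD1-dR3R1 calls of Ccl22, Ccl17, Ccr7 and Xcl1 remained in every alternative that gave a value, while that of Ccl1 ended without naive replicate 2 (0.0524) or 3 (0.0501) and that of Xcr1 without naive replicate 1 (0.0516) or 2 (0.0507).

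**Figure D3:**
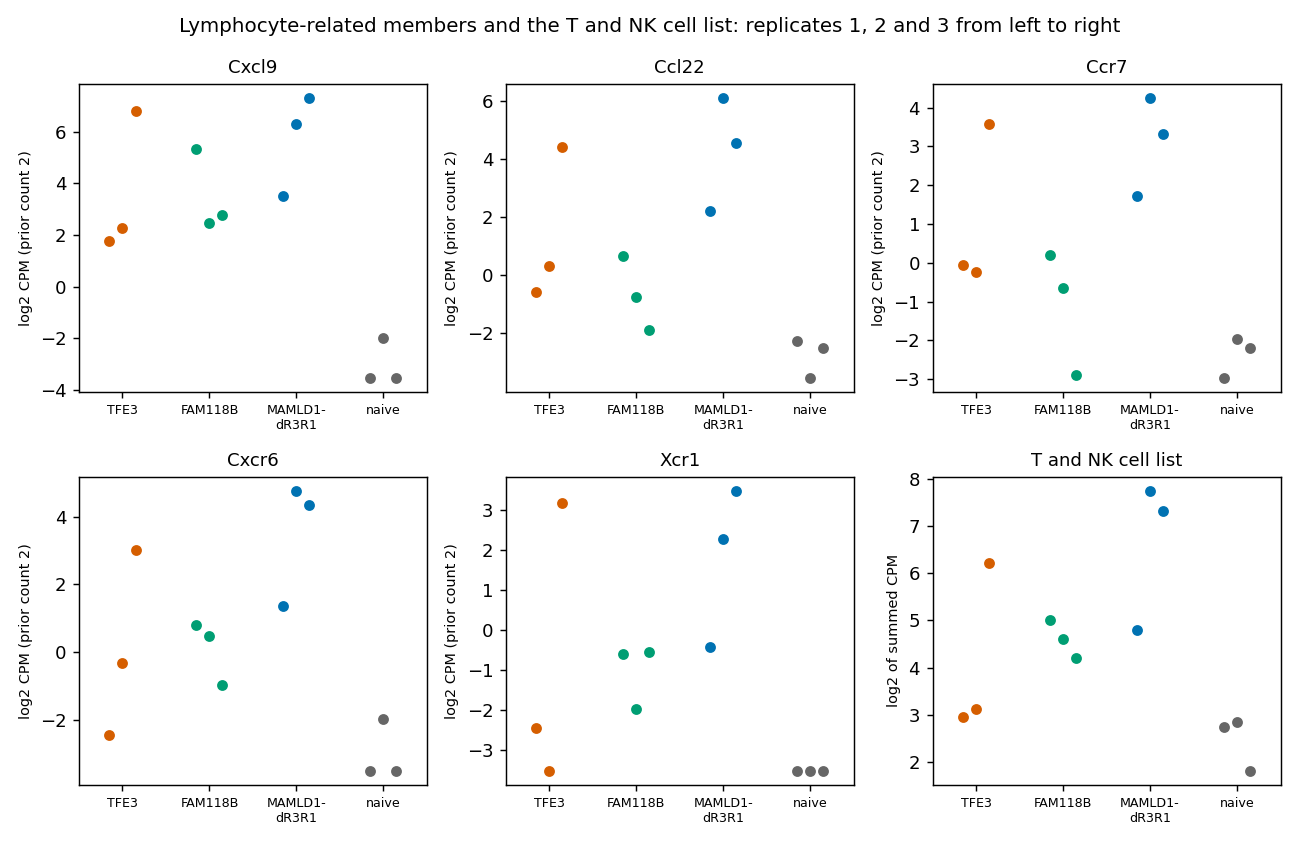
Log2 CPM of Cxcl9, Ccl22, Ccr7, Cxcr6 and Xcr1, and log2 of the summed CPM of the T and NK cell markers, with a point for each library and replicates 1, 2 and 3 from left to right. In each panel YAP1-TFE3 replicate 3 stands above the other YAP1-TFE3 libraries, and YAP1-MAMLD1-dR3R1 replicate 1 stands lowest in its group.

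A few members were called over naive in YAP1-MAMLD1-dR3R1 tumours alone. Ccr6, a receptor of B cells and T helper subsets, had 1.78, 1.51 and 1.67 CPM in YAP1-TFE3, 1.64, 2.06 and 0.830 CPM in YAP1-FAM118B and 2.45, 25.7 and 11.7 CPM in YAP1-MAMLD1-dR3R1 tumours, against 0.821, 0.838 and 0.836 CPM in naive cortex. YAP1-TFE3 and naive libraries were tight, and YAP1-MAMLD1-dR3R1 replicates 2 and 3 stood apart. YAP1-TFE3 over YAP1-MAMLD1-dR3R1 had a log2 fold change of -3.00 ± 0.69 (adjusted p = 0.00686). Ccl19, the Ccr7 ligand of lymphoid stroma, had 0.193, 0.177 and 0.279 CPM in YAP1-TFE3, 1.07, 0.336 and 0.185 CPM in YAP1-FAM118B and 1.40, 3.87 and 19.3 CPM in YAP1-MAMLD1-dR3R1 tumours, against 0.452, 0.335 and 0.132 CPM in naive cortex. Every YAP1-MAMLD1-dR3R1 library lay above all other libraries, and YAP1-TFE3 over YAP1-MAMLD1-dR3R1 had a log2 fold change of -5.21 ± 1.08 (0.0041). Both calls held in every alternative. Ccr9 was called as well (adjusted p = 0.0474), a call that ended in most alternatives that left out a library (0.0605 to 0.141), and 21.5% of its exon bases overlap other genes.

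Ccr3, the eotaxin receptor of eosinophils, was the member called over naive in YAP1-FAM118B tumours alone. It had 0.0482, 0.0443 and 0.464 CPM in YAP1-TFE3, 6.78, 0.378 and 9.73 CPM in YAP1-FAM118B and 0.117, 0.773 and 0 CPM in YAP1-MAMLD1-dR3R1 tumours, and 2 counts in naive cortex. YAP1-FAM118B replicates 1 and 3 were high and replicate 2 lay within the range of the other tumours. The ratio of YAP1-FAM118B to naive was 196 (53.8 to 1621, adjusted p = 0.0124), and the call ended without naive replicate 2 (0.051). YAP1-TFE3 over YAP1-FAM118B had a log2 fold change of -4.88 ± 1.505 (0.0209), which was lost without YAP1-FAM118B replicate 3 (0.057) or YAP1-TFE3 replicate 1 (0.0583) or 2 (0.0515). Its ligand Ccl11, an eotaxin, had means of 4.65 ± 4.70, 8.78 ± 9.80 and 20.5 ± 13.5 CPM in the 3 fusions, against 0.153 ± 0.127 CPM in naive cortex (SD, n = 3 each), and was called in each. Fibroblast and meningeal markers, of which 1, 3 and 4 of 10 were higher and 2, 0 and 1 lower than naive in that order, summed to 497 to 2436 CPM in YAP1-TFE3, 3292 to 18030 CPM in YAP1-FAM118B, 4107 to 5826 CPM in YAP1-MAMLD1-dR3R1 and 225 to 437 CPM in naive libraries.

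Cx3cl1 was the most abundant ligand per length in naive cortex, at 190.1 CPM per kilobase. It had 253, 258 and 214 CPM in YAP1-TFE3 tumours, 509, 649 and 379.5 CPM in YAP1-FAM118B tumours and 116, 101 and 55.2 CPM in YAP1-MAMLD1-dR3R1 tumours, against 895, 811 and 535 CPM in naive cortex. The YAP1-TFE3 and YAP1-MAMLD1-dR3R1 libraries lay below all naive libraries and apart from each other, and those of YAP1-FAM118B overlapped naive. The log2 fold change over naive was -1.63 ± 0.31 in YAP1-TFE3 (adjusted p = 0.000944), -0.54 ± 0.30 in YAP1-FAM118B tumours (0.197) and -3.04 ± 0.32 in YAP1-MAMLD1-dR3R1 (4.29e-05). YAP1-FAM118B over YAP1-MAMLD1-dR3R1 was 2.50 ± 0.32 (0.00338), and YAP1-TFE3 over YAP1-MAMLD1-dR3R1 was 1.41 ± 0.31 (0.00511). Neuron marker sums overlapped between these fusions, at 94.1 to 1164 CPM for YAP1-TFE3 and 269.8 to 1664 CPM for YAP1-MAMLD1-dR3R1. Of the 12 neuron markers, 1 was called lower for YAP1-TFE3 than for YAP1-MAMLD1-dR3R1. The part of neurons in the level of Cx3cl1 was not tested. Its receptor Cx3cr1, which is not a member by the rule, averaged 299 ± 256 CPM in YAP1-TFE3, 186 ± 16.7 CPM in YAP1-FAM118B and 1039 ± 297 CPM in YAP1-MAMLD1-dR3R1 tumours, against 44.1 ± 6.27 CPM in naive cortex (SD, n = 3 each), the reverse order of group means.

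Ackr3, which binds and removes Cxcl12, separated the fusions. It had 15.6, 8.78 and 10.4 CPM in YAP1-TFE3 tumours, 165, 121 and 225 CPM in YAP1-FAM118B tumours and 98.9, 86.0 and 86.1 CPM in YAP1-MAMLD1-dR3R1 tumours, against 15.6, 14.3 and 14.5 CPM in naive cortex. The YAP1-FAM118B, YAP1-MAMLD1-dR3R1 and remaining libraries formed ranges that did not overlap, while YAP1-TFE3 overlapped naive through replicate 1 alone. Without that library Ackr3 was called lower than naive in YAP1-TFE3 tumours. YAP1-TFE3 over YAP1-FAM118B had a log2 fold change of -3.88 ± 0.27 (adjusted p = 9.76e-06) and over YAP1-MAMLD1-dR3R1 of -2.96 ± 0.26 (3.61e-05). Over naive it was -0.35 ± 0.25 in YAP1-TFE3 (0.219), 3.52 ± 0.27 in YAP1-FAM118B tumours (2.28e-05) and 2.61 ± 0.26 in YAP1-MAMLD1-dR3R1 (2.83e-05). YAP1-FAM118B over YAP1-MAMLD1-dR3R1 was 0.91 ± 0.24 (0.0249), a call that ended without YAP1-FAM118B replicate 1 (0.0612) or 3 (0.0704) or YAP1-MAMLD1-dR3R1 replicate 2 (0.0656) or 3 (0.0662).

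Cxcl12 itself, the homeostatic ligand of Cxcr4, was not called over naive in any fusion with the main settings. Without YAP1-TFE3 replicate 1 it was called lower than naive in YAP1-TFE3 tumours. It had 66.6, 17.0 and 8.82 CPM in YAP1-TFE3, 118, 64.5 and 82.6 CPM in YAP1-FAM118B and 253, 152 and 36.6 CPM in YAP1-MAMLD1-dR3R1 tumours, against 66.6, 60.4 and 53.3 CPM in naive cortex. Both YAP1-TFE3 and YAP1-MAMLD1-dR3R1 tumours spread widely and overlapped naive. YAP1-TFE3 over YAP1-MAMLD1-dR3R1 had a log2 fold change of -2.26 ± 0.78 (adjusted p = 0.042), called in 9 of 20 settings and lost, among others, without YAP1-MAMLD1-dR3R1 replicate 1 (0.139). The receptor Cxcr4, carried by leukocytes, progenitors and vessels, had 28.6, 14.2 and 25.5 CPM in YAP1-TFE3, 28.8, 10.2 and 42.3 CPM in YAP1-FAM118B and 55.5, 40.2 and 31.6 CPM in YAP1-MAMLD1-dR3R1 tumours, against 1.48, 1.89 and 3.04 CPM in naive cortex. All tumour libraries lay above all naive ones, with log2 fold changes of 3.41 ± 0.53, 3.66 ± 0.54 and 4.31 ± 0.55 in that order (0.000288, 0.00076 and 0.000119). Of 10 endothelial markers 5, 1 and 8 were higher in the same order and 1 was lower in YAP1-TFE3 tumours, with sums of 203 to 346, 138 to 292 and 419 to 555 CPM, against 158 to 171 CPM in naive libraries.

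Cxcl14, a ligand of epithelium and of some cortical interneurons, fell in YAP1-TFE3 tumours. It had 11.04, 14.4 and 10.3 CPM there, 83.9, 60.5 and 64.6 CPM in YAP1-FAM118B tumours and 108, 47.8 and 51.4 CPM in YAP1-MAMLD1-dR3R1 tumours, against 72.3, 114 and 54.5 CPM in naive cortex. The YAP1-TFE3 libraries lay below every other library, and the rest overlapped. The log2 fold change of YAP1-TFE3 was -2.75 ± 0.37 over naive (adjusted p = 0.000116), -2.55 ± 0.37 over YAP1-FAM118B (0.000446) and -2.53 ± 0.37 over YAP1-MAMLD1-dR3R1 (0.0006). Ccl27a, a skin-homing ligand, had 0.916, 2.04 and 0.836 CPM in YAP1-TFE3, 18.3, 17.5 and 11.7 CPM in YAP1-FAM118B and 5.75, 4.74 and 1.42 CPM in YAP1-MAMLD1-dR3R1 tumours, against 33.6, 29.3 and 15.3 CPM in naive cortex. It fell over naive in YAP1-TFE3 (-4.36 ± 0.59 on the log2 scale, 0.000114) and in YAP1-MAMLD1-dR3R1 tumours (-2.71 ± 0.54, 0.00167), and was not called in YAP1-FAM118B tumours (-0.72 ± 0.51, 0.303). Its exons share 8 bases (0.337%) with Il11ra1 on the opposite strand.

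Ccl25, known from thymus and gut, was the member called in opposite directions. It had 4.53, 3.68 and 4.60 CPM in YAP1-TFE3, 2.83, 3.40 and 2.81 CPM in YAP1-FAM118B and 1.40, 1.79 and 1.15 CPM in YAP1-MAMLD1-dR3R1 tumours, against 2.50, 1.93 and 2.73 CPM in naive cortex. YAP1-TFE3 and YAP1-MAMLD1-dR3R1 libraries did not overlap with each other or with naive. Exons of Ccl25 share 204 bases (2.74%) with Elavl1 on the opposite strand. YAP1-TFE3 over YAP1-MAMLD1-dR3R1 had a log2 fold change of 1.56 ± 0.27 (adjusted p = 0.00163), called in every alternative. Over naive it was 0.84 ± 0.27 in YAP1-TFE3 (0.0166) and -0.72 ± 0.27 in YAP1-MAMLD1-dR3R1 (0.0379). The first was not called with library size as the only scaling (0.64, adjusted p = 0.0536), with no filter (0.0686), with only the groups compared (0.0696) or without naive replicate 1 (0.0905) or 2 (0.0659) or any YAP1-TFE3 library (0.0702 to 0.102). The second was lost, among others, with no filter (0.0591), with only the groups compared (0.0945), without naive replicate 1 (0.0761) or 3 (0.112), YAP1-MAMLD1-dR3R1 replicate 1 (0.0814) or 3 (0.105), or YAP1-FAM118B replicate 1 (0.0555) or 3 (0.0512).

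**Figure D4:**
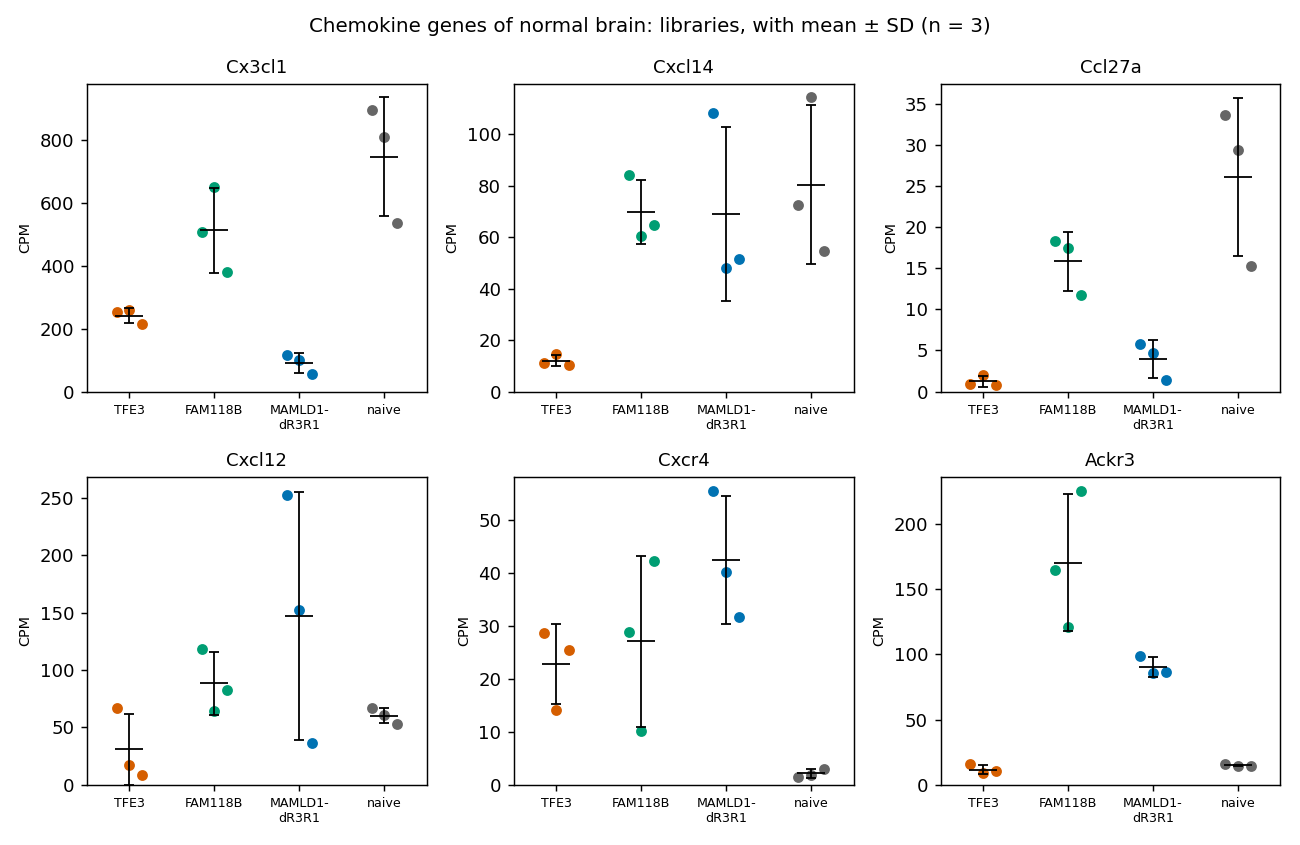
CPM of Cx3cl1, Cxcl14, Ccl27a, Cxcl12, Cxcr4 and Ackr3 in each library, with the group mean and SD (n = 3). Group means are highest in naive cortex for Cx3cl1 and Ccl27a, with overlap by YAP1-FAM118B tumours, YAP1-TFE3 libraries are below all others for Cxcl14, and Ackr3 is high in YAP1-FAM118B and YAP1-MAMLD1-dR3R1 tumours and near the naive level in YAP1-TFE3 tumours.

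Between fusions, fewer members were called. In YAP1-TFE3 over YAP1-FAM118B tumours 3 were higher and 6 lower, where 51.7% of all genes were called, 28.0% as higher and 23.7% as lower. Libraries did not overlap in 7 members that were higher and 5 that were lower, where 31.4% and 26.9% of all genes did not. Higher were Ccl3, Ccl4 and Ccr8, and lower were Ackr3, Ccl27a, Ccr1, Ccr3, Cx3cl1 and Cxcl14. Ccr8 had no count in YAP1-FAM118B tumours and was at least 9.70-fold higher in YAP1-TFE3 tumours (adjusted p = 0.0465), a call lost in most alternatives (up to 0.129 without YAP1-TFE3 replicate 3). That of Cx3cl1 ended without YAP1-FAM118B replicate 2 (0.0505). In YAP1-TFE3 over YAP1-MAMLD1-dR3R1 tumours 2 were higher and 8 lower, where 39.5% of all genes were called, 22.6% as higher and 16.9% as lower. Here 4 members were higher and 8 lower without overlap (27.0% and 21.1% of all genes). Higher were Ccl25 and Cx3cl1, and among the lower were Ackr3, Ccl19, Ccl27a, Ccr1, Ccr6, Cxcl12 and Cxcl14. Without YAP1-TFE3 replicate 3 that count went to 2 higher and 21 lower. Of the 16659 genes tested in that setting 2916 were higher and 3552 lower. Of the microglia markers 13 of 16 were lower in YAP1-TFE3 than in YAP1-MAMLD1-dR3R1 tumours, and their part in these calls was not tested. The call of Ccl27a, at -1.64 ± 0.54 on the log2 scale (0.0361), ended without YAP1-MAMLD1-dR3R1 replicate 1 (0.116) or 2 (0.0795), YAP1-TFE3 replicate 1 (0.0984) or 3 (0.0861), naive replicate 2 (0.051) or YAP1-FAM118B replicate 1 (0.0508), and with only the groups compared (0.121).

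In YAP1-FAM118B over YAP1-MAMLD1-dR3R1 tumours 4 were higher and 12 lower, where 26.2% of all genes were called, 12.7% as higher and 13.5% as lower. Without overlap 4 were higher and 18 lower (23.7% and 25.0% of all genes). Higher were Ackr3, Ccl25, Ccl27a and Cx3cl1. Lower were Ccl4, Ccl5, Ccl12, Ccl17, Ccl19, Ccl22, Ccr6, Ccr7, Ccr8, Ccr9, Cxcl13 and Cxcl16. The log2 fold change was -3.00 ± 0.77 for Cxcl13 (adjusted p = 0.022), -2.01 ± 0.57 for Ccl12 (0.0306), -4.12 ± 1.01 for Ccl5 (0.0189) and -3.13 ± 0.69 for Ccr6 (0.0137). Most of these calls ended when a single library was left out. Leaving out YAP1-FAM118B replicate 1, 2 or 3 kept 3, 4 and 5 of the 16 calls, and leaving out YAP1-MAMLD1-dR3R1 replicate 2 or 3 kept 3 and 4. Without both naive replicate 2 and YAP1-FAM118B replicate 2, 3 members were called. Cx3cl1 was the call present in every alternative. Microglia markers differed alongside, with 15 of 16 lower in YAP1-FAM118B than in YAP1-MAMLD1-dR3R1 tumours, and their part was not tested.

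Without naive replicate 2 and YAP1-FAM118B replicate 2 together, further calls ended. In YAP1-TFE3 over naive these were Ccl1 (adjusted p = 0.121), Ccl17 (0.106), Ccl24 (0.154), Ccl25 (0.076), Ccr8 (0.0651), Cxcl11 (0.0951), Cxcr2 (0.0762), Xcl1 (0.0583) and Xcr1 (0.0769). In YAP1-FAM118B over naive they were Ccl3 (0.233), Ccl5 (0.0548), Cxcl9 (0.0642), Cxcl11 (0.135) and Cxcr2 (0.262), and in YAP1-MAMLD1-dR3R1 over naive Ccl1 (0.0561), Ccr9 (0.166), Cxcl2 (0.0708) and Xcr1 (0.0665). Between fusions Ccr8 (0.0901) and Cx3cl1 (0.0687) lost the call of YAP1-TFE3 over YAP1-FAM118B, and Ccl27a (0.0667) and Cxcl12 (0.0734) that of YAP1-TFE3 over YAP1-MAMLD1-dR3R1.

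Ligands and receptors were also read as pairs. Of 35 ligand and receptor pairs listed from general knowledge, both genes were higher than naive in 19 pairs in YAP1-TFE3, 15 in YAP1-FAM118B tumours and 21 in YAP1-MAMLD1-dR3R1 tumours. Singly, 33, 24 and 36 of the 46 tested members were higher in that order, and 40.6%, 21.3% and 34.4% of all genes tested. The pairs share genes and some hold an untested one, so their counts restate the single calls. Among pairs with a higher ligand and a tested receptor not called were Cxcl13 with Cxcr5 in YAP1-TFE3 and YAP1-FAM118B tumours, Cxcl16 with Cxcr6 and Ccl8 with Ccr8 in YAP1-FAM118B tumours, and Ccl11 with Ccr3 in YAP1-TFE3 and YAP1-MAMLD1-dR3R1 tumours. Between fusions no pair had both genes higher in the fusion named first. Both genes were lower for Ccl19 with Ccr7 in YAP1-FAM118B than in YAP1-MAMLD1-dR3R1 tumours. The same held for Cxcl12 with Ackr3 in YAP1-TFE3 than in YAP1-MAMLD1-dR3R1 tumours. Ccl19, Ccr7 and Cxcl12 each lost those calls in several alternatives.

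Members were also read by their place on the chromosomes. Of all members called over naive, 33 of 36 were higher in YAP1-TFE3, 24 of 24 in YAP1-FAM118B and 36 of 39 in YAP1-MAMLD1-dR3R1 tumours, so that neighbours called in 1 direction say little about place. The 6 genes from Ccl2 to Ccl1, in the order Ccl2, Ccl7, Ccl11, Ccl12, Ccl8 and Ccl1, span chr11:82035577-82179812 in GRCm38.p6. All 6 were higher in YAP1-TFE3 and YAP1-MAMLD1-dR3R1 tumours and 5 in YAP1-FAM118B tumours. The cluster of Ccl5, Ccl9, Ccl6, Ccl3 and Ccl4 at chr11:83525778-83664683 was higher in all 3 fusions at each of its 5 genes, as was that of Cxcl9, Cxcl10 and Cxcl11 at chr5:92321331-92363296. At chr8:94745684-94812038 Cx3cl1 lies between Ccl22 and Ccl17, and in YAP1-TFE3 and YAP1-MAMLD1-dR3R1 tumours it was lower than naive while both neighbours were higher. At chr4:41769467-42773991 Ccl27a was lower and Ccl19 higher in YAP1-MAMLD1-dR3R1 tumours, and the other 3 members there were not tested.

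Other genes of chemokine handling were counted in the same way. From a list of 40 genes for binding, scavenging and signalling, 37 were tested, and 25 were higher and 4 lower than naive in YAP1-TFE3, 25 and 0 in YAP1-FAM118B and 27 and 4 in YAP1-MAMLD1-dR3R1 tumours. Of all genes 40.6% were higher and 30.0% lower in YAP1-TFE3, 21.3% and 8.45% in YAP1-FAM118B and 34.4% and 28.8% in YAP1-MAMLD1-dR3R1 tumours. Between fusions 5 were higher and 3 lower in YAP1-TFE3 than in YAP1-FAM118B, 2 and 16 in YAP1-TFE3 than in YAP1-MAMLD1-dR3R1, and 2 and 18 in YAP1-FAM118B than in YAP1-MAMLD1-dR3R1 tumours. Of all genes 28.0% were higher and 23.7% lower in the first of these comparisons. The shares were 22.6% and 16.9% in the second and 12.7% and 13.5% in the third. Dock2, which drives leukocyte movement downstream of the receptors, averaged 68.3 ± 55.2 CPM in YAP1-TFE3, 47.7 ± 7.91 CPM in YAP1-FAM118B and 224 ± 39.0 CPM in YAP1-MAMLD1-dR3R1 tumours, against 3.77 ± 0.292 CPM in naive cortex (SD, n = 3 each). Pik3cg, the lipid kinase they activate, averaged 38.9 ± 14.6, 26.5 ± 4.60 and 102 ± 13.8 CPM in that order, against 3.58 ± 0.474 CPM in naive cortex, and both were called higher in each fusion. Cmklr1, the chemerin receptor of macrophages, and Tyrobp, a myeloid signalling adaptor, were likewise higher in each, by 4.14 to 6.16 and 3.62 to 5.41 on the log2 scale. So was Gnai2, the inhibitory G protein subunit most used by leukocytes, by 1.16 to 1.97. Sdc4, a heparan sulphate proteoglycan that binds chemokines, averaged 388 ± 111 CPM in YAP1-TFE3, 116 ± 9.70 CPM in YAP1-FAM118B and 233 ± 56.0 CPM in YAP1-MAMLD1-dR3R1 tumours, against 58.2 ± 9.79 CPM in naive cortex.

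The scavenging receptors did not follow Ackr3. Ackr1, which venules use to present chemokines, averaged 4.84 ± 2.41 CPM in YAP1-TFE3, 18.5 ± 6.94 CPM in YAP1-FAM118B and 6.71 ± 4.95 CPM in YAP1-MAMLD1-dR3R1 tumours, against 25.8 ± 3.97 CPM in naive cortex (SD, n = 3 each). It was lower than naive in YAP1-TFE3 (-2.41 ± 0.68 on the log2 scale, adjusted p = 0.0096) and YAP1-MAMLD1-dR3R1 tumours (-1.94 ± 0.67, 0.0279). Ackr2 and Ackr4 averaged 0.974 to 4.07 CPM in the 4 groups and were called in no comparison. Pf4, a platelet and macrophage chemokine named outside the Cxcl series, averaged 4.02 ± 4.48, 11.5 ± 8.68 and 4.10 ± 5.30 CPM in the 3 fusions in that order, against 0.813 ± 0.534 CPM in naive cortex, and was called in YAP1-FAM118B alone (0.0484).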

How the data were processed

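Per the submitters' processing notes, the authors counted reads per gene symbol with HTSeq on genome build mm10, and the deposited values are raw counts, used as given. The sources used here do not give the aligner, annotation, strand setting or tool version. The 12 libraries were fitted together in R 4.3.3 by edgeR 4.0.16 (limma 3.58.1), after filterByExpr with a minimum count of 10 and TMM scaling, with quasi-likelihood tests of 6 contrasts and Benjamini-Hochberg adjustment over all genes tested at 0.05. The SE is the log2 fold change divided by the square root of F. Where a whole group had no count, 3 counts stood in as its floor, and a group total of 1 to 3 counts gave a ratio with its exact 95% counting interval. The code was tested on simulated data first. The members, marker lists, pairs and the rule for genes named with every library's value were chosen with earlier results of these data known. That rule took up to 10 called members per fusion by fold change without overlap of libraries and with a mean of at least 5 CPM, those called between fusions at that level, those lower than naive and the members best known from normal brain. Positions and promoters are from RefSeq (GRCm38.p6), and exon lengths from GENCODE M21. Alternatives were RLE factors, library size only, no filter, 1 CPM in 3 libraries, DESeq2 1.42.0, only the groups compared, a replicate block and libraries left out. The values of 1 tested member are not reported here, though it is included in the counts.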

Additional observations from a re-analysis of the deposited data

How the results depend on the processing

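Called in every alternative that gave a value were 22 of 36 members in YAP1-TFE3 over naive, 17 of 24 in YAP1-FAM118B over naive, 34 of 39 in YAP1-MAMLD1-dR3R1 over naive, 5 of 9 in YAP1-TFE3 over YAP1-FAM118B, 6 of 10 in YAP1-TFE3 over YAP1-MAMLD1-dR3R1 and 1 of 16 in YAP1-FAM118B over YAP1-MAMLD1-dR3R1. Leaving out a library gave, in that order, 22 to 36, 18 to 26, 35 to 40, 7 to 12, 8 to 23 and 3 to 19 members called, and 10406 to 11669, 2979 to 5475, 8996 to 10808, 6933 to 8573, 4953 to 6667 and 1666 to 5069 of all genes. DESeq2 called 14 members in YAP1-TFE3 over YAP1-FAM118B and 16 in YAP1-TFE3 over YAP1-MAMLD1-dR3R1, and 9287 and 7808 of all genes. Without both naive replicate 2 and YAP1-FAM118B replicate 2, which hold Xist and Y-linked counts together, YAP1-FAM118B over YAP1-MAMLD1-dR3R1 had 3 members and 1010 genes called. The cause of these differences was not tested. Ccl24 was the one member to change sign with a call on either side, without YAP1-TFE3 replicate 3, to log2 fold changes of -0.19 over naive, -4.13 over YAP1-MAMLD1-dR3R1 (adjusted p = 0.0455) and -3.88 over YAP1-FAM118B (0.0478). Over all libraries left out in turn its log2 fold change was -0.19 to 5.55 over naive, -4.13 to 0.81 over YAP1-MAMLD1-dR3R1 and -3.88 to 1.46 over YAP1-FAM118B. Members with no call on either side crossed 0 as well, such as Cxcl9 in YAP1-TFE3 over YAP1-FAM118B (-2.34 to 2.68).

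Of 18 pairs of libraries with the same replicate number 4 had deviations from the group means correlated over 0.1 (r = -0.11 to 0.32). Of 36 pairs with other numbers 7 did (r = -0.42 to 0.36), and 4 of 12 libraries correlated best with their own number. With 3 libraries a group these values cannot settle whether replicate numbers pair the samples. With the replicate block 31, 22, 37, 9, 10 and 12 members were called, in the order above. Of all genes 11330, 4717, 10186, 8222, 6391 and 4194 were called. With library size as the only scaling the log2 fold changes of single genes shifted by a median of -0.192 in YAP1-TFE3 over naive. The median shift was -0.193 over YAP1-MAMLD1-dR3R1 and -0.214 over YAP1-FAM118B. With RLE factors it was -0.15 in YAP1-TFE3 over naive. The share of called genes that were higher was 57.2% in YAP1-TFE3 over YAP1-MAMLD1-dR3R1 and 42.0% with library size only, 54.2% in YAP1-TFE3 over YAP1-FAM118B and 41.3% with library size only, and 71.6% in YAP1-FAM118B over naive and 57.3% with DESeq2. Depth limits what can be said of members near 0.117 to 0.145 CPM, the worth of 3 counts in a library.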
